A study of Mus musculus with 6 samples.

Results

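The MAPK feedback phosphatases and Sprouty genes are 10 genes whose transcripts are made in answer to ERK activity or whose proteins hold MAP kinase signalling back. They were 5 dual-specificity phosphatases (Dusp4, Dusp5, Dusp6, Dusp10 and Dusp16), 3 Sprouty genes (Spry1, Spry2 and Spry4) and 2 Spred genes (Spred1 and Spred2), out of 24888 genes that could be matched. Each gene is the sum of the transcript identifiers whose exons lie on the strand of that gene and share at least 50% of their bases with it, 19 identifiers in all. The RNA was from kidney collecting duct cells. The mice were males of the inbred strain C57BL/6J that had eaten a low-NaCl diet (0.01 to 0.02% sodium, 3 libraries) or a high-NaCl diet (2.4% sodium, 3 libraries) for 5 days. The mice carried no transgene or deletion that the labels name, there was no group on a standard diet, and no age is stated. The labels give neither the method of isolation nor whether each library was a separate animal or a pool, so each p-value rests only on how these libraries differ within a diet, and that variation may be technical.

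When a growth factor binds its receptor tyrosine kinase, the kinases RAF, MEK and ERK are activated in turn, and ERK enters the nucleus and raises transcription. Among the genes it raises are inhibitors of the same cascade. Dual-specificity phosphatases remove phosphate from the tyrosine and threonine of a MAP kinase, Sprouty proteins interfere between the receptor and RAF, and Spred proteins recruit the RAS inhibitor neurofibromin to the membrane. Transcripts of several of these genes, Dusp6 and Spry4 among them, are therefore commonly read as a record of recent ERK activity. In the mouse kidney Spry1 restrains RET signalling in the ureteric bud, from which the collecting duct grows.

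Upstream windows of 3 members are printed because serum response factor and ETS factors are known carriers of ERK signals to promoters. RefSeq gave a window of 250 bases before to 50 bases after the gene start for 8 of the 10 genes, in build GRCm38.p6. The windows were searched on both strands for the CArG box of serum response factor, the cyclic AMP response element TGACGTCA, the AP-1 sites TGACTCA and TGAGTCA, and the ETS core CCGGAA. Capitals mark the matches. Dusp5 held 2 adjacent CArG boxes, CCATATTTGG from 82 to 73 bases and CCTTATATGG from 72 to 63 bases before the start. A CArG box was in 1.63% of all 32817 windows of that length. Spry2 held 1 ETS core after the start, a motif found in 14.9% of all windows. The shares were 1.79% for TGACGTCA and 5.20% for the AP-1 sites, and neither was found in any member's window. No match says only that these letters are not in the window.
Dusp5 (chr19:53528895-53529194, plus strand): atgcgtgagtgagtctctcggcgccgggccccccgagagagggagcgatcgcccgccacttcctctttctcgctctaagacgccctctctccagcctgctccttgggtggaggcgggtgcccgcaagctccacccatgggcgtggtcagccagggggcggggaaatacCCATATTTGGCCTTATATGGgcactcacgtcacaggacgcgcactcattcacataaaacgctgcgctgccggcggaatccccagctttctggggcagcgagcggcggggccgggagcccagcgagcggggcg
Dusp6 (chr10:99262981-99263280, plus strand): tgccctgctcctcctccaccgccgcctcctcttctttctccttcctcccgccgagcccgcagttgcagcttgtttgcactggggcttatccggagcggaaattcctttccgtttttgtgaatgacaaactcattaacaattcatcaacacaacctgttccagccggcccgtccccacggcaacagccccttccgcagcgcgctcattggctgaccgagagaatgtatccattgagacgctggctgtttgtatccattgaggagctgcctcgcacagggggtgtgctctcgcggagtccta
Spry2 (chr14:105896770-105897069, minus strand): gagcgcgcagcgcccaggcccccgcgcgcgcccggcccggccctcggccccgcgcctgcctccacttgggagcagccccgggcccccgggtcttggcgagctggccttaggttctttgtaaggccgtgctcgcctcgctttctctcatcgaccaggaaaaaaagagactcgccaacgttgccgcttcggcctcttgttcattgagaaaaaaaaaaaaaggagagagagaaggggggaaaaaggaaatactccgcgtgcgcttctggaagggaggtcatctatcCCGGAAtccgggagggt

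Library depth was 40101899 to 46861531 counted reads. Levels are CPM (counted reads scaled to a common library size), and differences are log2 fold changes, low-NaCl minus high-NaCl, ± SE. Of 10566 genes tested with edgeR, 3.46% passed an adjusted p of 0.05. Aqp2, the water channel that defines principal cells, lay between 2136 and 3624 CPM on the low-NaCl diet and between 6148 and 8312 CPM on the high-NaCl diet, and of the principal cell markers 3 of 8 fell. Of the intercalated cell markers 5 of 8 rose. The libraries of the diets did not overlap in 7 of 8 principal markers, lower on the low-NaCl diet, and 8 of 8 intercalated markers, higher. Over all tested genes they did not overlap in 23.9%, in either direction. Under 50% of exonic bases were countable in 5 of the principal and 1 of the intercalated markers. The summed level of the principal markers was 3148 to 4786 against 8805 to 10960.1 CPM, and that of the intercalated markers 2660 to 5235 against 1761 to 2033 CPM. Of the connecting tubule markers 2 of 3 tested fell, and of the thick ascending limb markers 1 of 3 tested rose. None of the tested proximal tubule, distal convoluted tubule, podocyte, stromal, endothelial or red blood cell markers passed. The proximal tubule markers summed to 1734 to 3468 against 970 to 2205 CPM, of which Aqp1 held 1705 to 3447 against 939 to 2170 CPM. The thick ascending limb markers summed to 92.5 to 105 against 45.3 to 64.5 CPM. The 6 endothelial markers summed to 0.118 to 1.30 against 1.65 to 1.82 CPM and the 6 immune markers to 0.296 to 0.637 against 0.479 to 0.746 CPM. Emcn and Ptprc, defining markers of these cells, had no counted read in any library, with 65.9% and 19.2% of their exonic bases countable. The endothelial markers Pecam1 and Tek had 0% countable and could hold no read. Under 50% of exonic bases were countable in 3 of the 6 immune markers and all 4 thick ascending limb markers. Their sums thus leave out many reads of these genes. In such bulk RNA, fewer cells of a type and less RNA per cell cannot be told apart, and the part of these cell markers in the results below was not tested.

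None of the 8 members that could be tested passed in either direction, and Dusp16 and Spry1 could not be tested. The share of all tested genes that passed was 3.46%, so that a count of 0 among 8 is near the background. One member of the 8, Spry4, had an unadjusted p under 0.05, against 18.3% of all tested genes. DESeq2, limma-voom and limma-voom with sample weights also called 0 members, where they called 7.53%, 2.92% and 9.84% of all genes. With the replicate number as a block, a pairing the libraries are not shown to have, 1 member (Dusp6) was called beside 8.65% of all genes. The libraries of the 2 diets overlapped in all 8, whereas they lay apart in 23.9% of tested genes. Log2 fold changes were above 0 in 6 members and below 0 in 2, with a median of 0.25 beside -0.002 over all tested genes. The intervals below are wide, and differences as large as their bounds are not excluded by these libraries.

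Dusp6 encodes a cytoplasmic phosphatase specific to ERK and was the most abundant of the tested members. On chromosome 10 (99263231 to 99267489, plus strand), it measured 117, 175 and 121 CPM in low-NaCl libraries 1, 2 and 3, against 53.9, 129.6 and 86.4 CPM in high-NaCl libraries 1, 2 and 3. High-NaCl library 2 thus lay above 2 of the 3 low-NaCl libraries, while the other high-NaCl libraries lay below all of them. The means were 138 ± 32.1 CPM on the low-NaCl diet and 90.0 ± 38.02 CPM on the high-NaCl diet (SD, n = 3 each). The log2 fold change was 0.61 ± 0.29 (1.53-fold, 95% interval -0.03 to 1.25, edgeR adjusted p = 0.297). Leaving out high-NaCl library 1 gave 0.35, and leaving out high-NaCl library 2 gave 0.97. Against high-NaCl library 2 alone, the library of that diet with under 25% of mitochondrial counts, it was 0.073.

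Dusp4 and Dusp5, inducible phosphatases of the nucleus, were measured at lower levels. Dusp5 acts on ERK and Dusp4 on several MAP kinases. Dusp4, on chromosome 8 (34807297 to 34819894, plus strand), measured 12.3, 21.1 and 11.3 CPM in low-NaCl libraries 1 to 3, against 9.35, 13.6 and 12.1 CPM in high-NaCl libraries 1 to 3. Low-NaCl library 2 alone stood above the high-NaCl libraries. Its log2 fold change was 0.35 ± 0.25 (95% interval -0.22 to 0.92, edgeR adjusted p = 0.518), and 0.01 without low-NaCl library 2. Dusp5, on chromosome 19 (53529109 to 53542431, plus strand) and the holder of both CArG boxes, measured 1.91, 3.19 and 1.91 CPM in low-NaCl libraries, against 2.28, 2.77 and 2.05 CPM in high-NaCl libraries. Its means were 2.34 ± 0.737 CPM on the low-NaCl diet and 2.37 ± 0.369 CPM on the high-NaCl diet (SD, n = 3 each). The 95% interval of its log2 fold change, -0.63 to 0.59 around -0.02, spans changes of either sign (edgeR adjusted p = 0.978).

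Dusp10 and Dusp16 encode phosphatases that act mainly on the stress kinases JNK and p38. Dusp10, on chromosome 1 (184013302 to 184075636, plus strand), measured 2.93, 4.33 and 3.09 CPM in low-NaCl libraries 1 to 3, against 0.743, 3.52 and 1.84 CPM in high-NaCl libraries 1 to 3. The low-NaCl libraries lay within a 1.48-fold range, and the high-NaCl libraries within a 4.74-fold range that reached into it. The log2 fold change was 0.74 ± 0.45 (95% interval -0.26 to 1.75, edgeR adjusted p = 0.425). Leaving out high-NaCl library 1, which held 27 reads of the gene, gave 0.35, and leaving out high-NaCl library 2 gave 1.41. It was -0.041 against high-NaCl library 2 alone. Dusp16, on chromosome 6 (134715468 to 134792625, minus strand), could not be tested. Its 5 overlapping identifiers left 32.3% of exonic bases to a single identifier, and reads of shared exons were not assigned. It had 0, 2 and 7 reads in low-NaCl libraries against 0, 4 and 4 in high-NaCl libraries.

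Of the Sprouty genes that could be tested, Spry2 was the more abundant. Its protein is an inhibitor of receptor tyrosine kinase signalling to ERK. On chromosome 14 (105891947 to 105896819, minus strand), it measured 40.8, 67.0 and 46.4 CPM in low-NaCl libraries 1 to 3, against 34.4, 64.2 and 52.3 CPM in high-NaCl libraries 1 to 3. Library 2 was highest and library 1 lowest in each diet, and the diets overlapped almost entirely. The means were 51.4 ± 13.8 CPM on the low-NaCl diet and 50.3 ± 15.0 CPM on the high-NaCl diet (SD, n = 3 each), a log2 fold change of 0.03 ± 0.25 (95% interval -0.52 to 0.58, edgeR adjusted p = 0.960).

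Spry4, on chromosome 18 (38586247 to 38601415, minus strand), encodes another inhibitor of the pathway and was near the limit of detection. It had 12, 53 and 24 reads in low-NaCl libraries 1 to 3, against 10, 19 and 9 in high-NaCl libraries 1 to 3. These were 0.298, 1.21 and 0.566 CPM on the low-NaCl diet and 0.275, 0.363 and 0.239 CPM on the high-NaCl diet. Low-NaCl library 1 lay within the range of the high-NaCl libraries, and the other low-NaCl libraries lay above it. The log2 fold change was 1.22 ± 0.54 (95% interval 0.02 to 2.43, edgeR adjusted p = 0.267 and unadjusted p = 0.0476), and 0.55 without low-NaCl library 2. Spry1, on chromosome 3 (37639947 to 37644598, plus strand), could not be tested, since its 2 identifiers share all but 1.76% of their exonic bases. It had 1, 0 and 2 reads in low-NaCl libraries against 0, 0 and 1 in high-NaCl libraries, which says nothing of its level.

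Spred1 and Spred2 varied least between libraries. Spred1, on chromosome 2 (117121374 to 117182279, plus strand), measured 26.0, 29.3 and 29.4 CPM in low-NaCl libraries, against 24.2, 26.5 and 25.3 CPM in high-NaCl libraries. High-NaCl library 2 lay above low-NaCl library 1 and below the other low-NaCl libraries. The log2 fold change was 0.16 ± 0.13 (95% interval -0.13 to 0.44, edgeR adjusted p = 0.569). The 2 well counted identifiers of Spred1, a spliced transcript of 7 exons and a single exon at the 3' end, gave 0.20 ± 0.16 and 0.11 ± 0.15. Spred2, on chromosome 11 (19924375 to 20024026, plus strand), measured 27.7, 33.6 and 28.0 CPM in low-NaCl libraries, against 32.6, 36.6 and 30.3 CPM in high-NaCl libraries. Its log2 fold change was -0.16 ± 0.14 (95% interval -0.47 to 0.16, edgeR adjusted p = 0.608), and 44.8% of its exonic bases were countable.

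**Figure D1:**
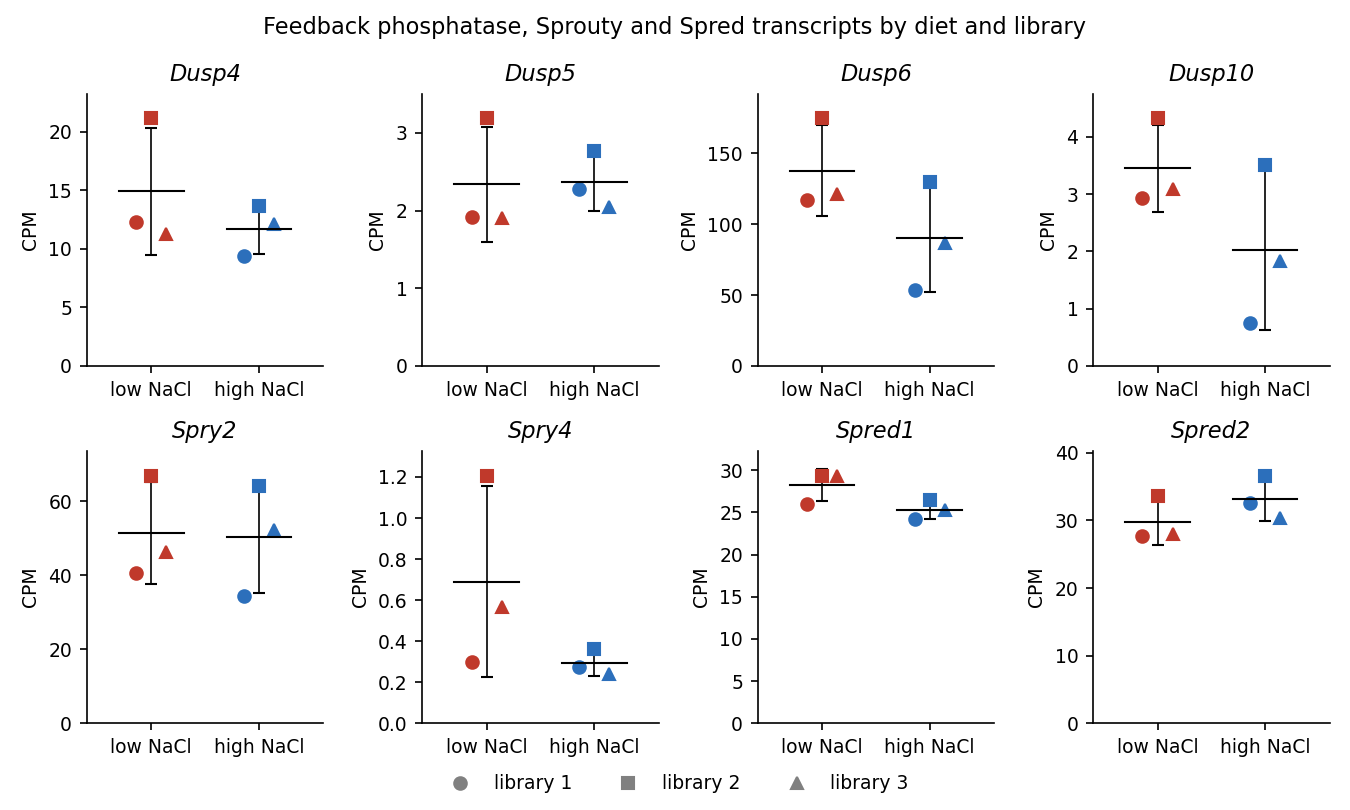
CPM (vertical axes, each from 0) of the 8 tested genes in each low-NaCl (left, red) and high-NaCl (right, blue) library, with the mean (bar) and SD (whisker) of 3 libraries. In Dusp6 high-NaCl library 2 reached 129.6 CPM, above low-NaCl libraries 1 and 3, and in every gene the diets overlap.

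**Figure D2:**
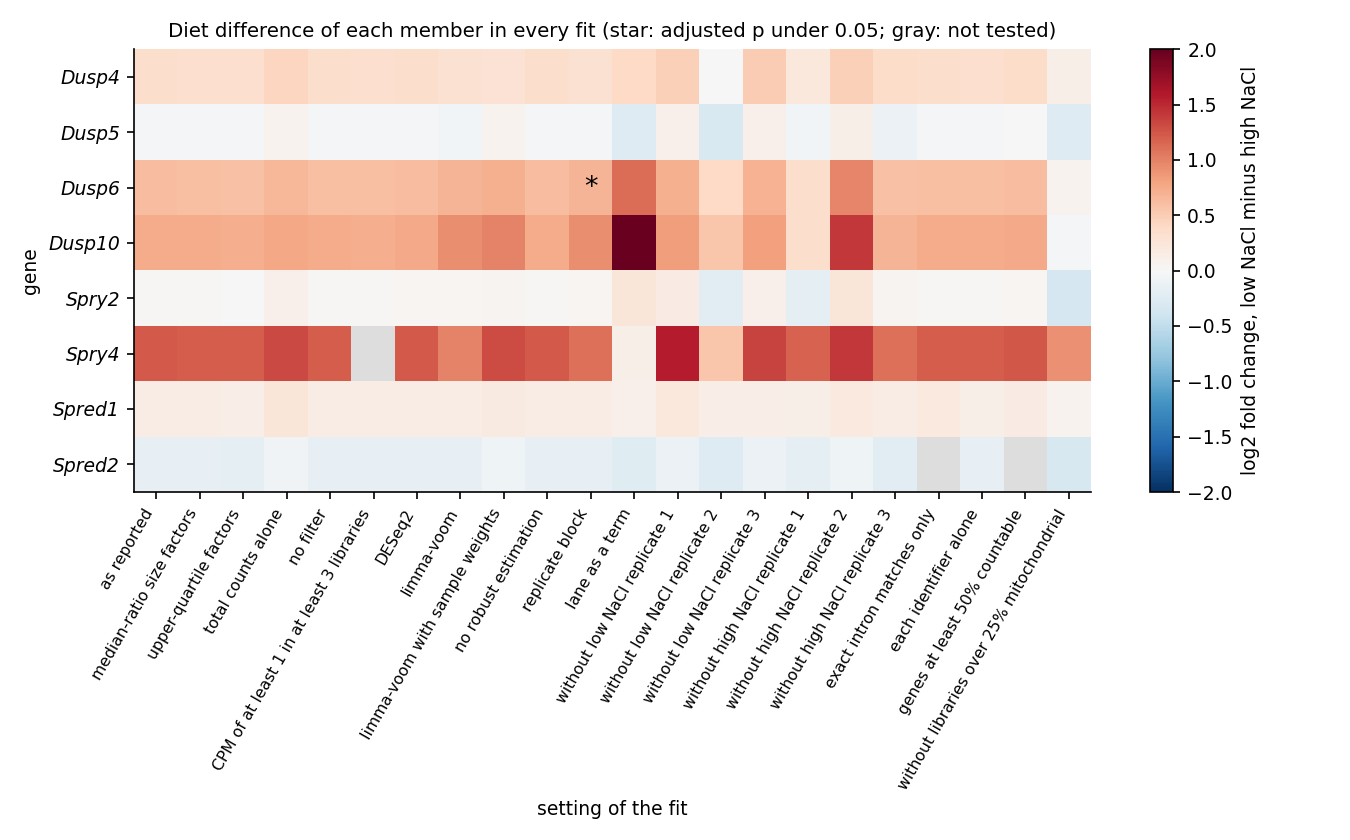
Log2 fold changes, low NaCl minus high NaCl (color), of the 8 tested genes (rows) in the fit as reported and in each other fit (columns). Dusp6 and Dusp10 are palest where high-NaCl library 2 stands alone for its diet, at 0.073 and -0.041, gray marks a gene not tested, and the star marks Dusp6 with the replicate number as a block.

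Set per kilobase of countable exon and averaged over the 6 libraries, the levels fell in the order Dusp6 (40.7 CPM per kb), Spry2 (24.4), Spred2 (13.5), Dusp4 (5.48), Spred1 (5.28), Dusp5 (2.04), Dusp10 (1.01) and Spry4 (0.107 CPM per kb). Dusp6 and Spry2 overlapped across libraries, at 19.3 to 62.4 and 16.5 to 32.1 CPM per kb, although Dusp6 was the higher in each of the 6 libraries. Dusp4 and Spred1 did not differ beyond their spread, at 3.85 to 8.71 and 4.77 to 5.79 CPM per kb. The other neighbours in the order did not overlap, though for Spry2 and Spred2 this rests on the length used. Of the countable bases of Spred2, 897 lay in an identifier with 4 to 10 reads per library. Nearly all its reads came from a single-exon identifier at the 3' end with 1438 countable bases. On that identifier alone its level per kilobase would be higher, so its place below Spry2 is not settled. The spread within a diet differed widely among members. The SD of log2 CPM within a diet was 0.08 for Spred1 and 0.15 for Spred2, smaller than in most tested genes, of which 4.44% and 17.9% had a smaller one. It was 0.50 for Dusp6, 0.63 for Spry4 and 0.77 for Dusp10, and 84.6%, 92.3% and 96.3% of tested genes had a smaller one.

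Most members shared a pattern across library numbers in both diets, although these numbers are not shown to pair libraries. Library 2 of each diet held the highest level of its diet in 7 of the 8 tested members, all but Spred1, where low-NaCl library 3 was marginally higher. Over all tested genes this was so in 18.1%, and the pattern was looked for after the values were seen. Library 1 of each diet was the lowest of its diet in Dusp6, Dusp10, Spry2 and Spred1, which 21.7% of tested genes shared. The same libraries also differed in broad measures. Identifiers with a counted read numbered 18387, 19513 and 19333 in low-NaCl libraries 1 to 3, against 17294, 19880 and 18529 in high-NaCl libraries 1 to 3. Mitochondrial transcripts took 21.8, 20.5 and 21.0% of counts in low-NaCl libraries, against 29.9, 21.9 and 28.7% in high-NaCl libraries. The part of these differences in the levels of the members was not tested.

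The read files place library 1 of each diet together in lane 1, the other low-NaCl libraries in lane 2 and the other high-NaCl libraries in lane 3. A fit with a lane term therefore draws the diet difference from lane 1 alone, with 1 library of each diet. A call lost in that fit cannot be read as the absence of a difference. Between the 2 libraries of lane 1 the log2 difference, low-NaCl minus high-NaCl, was 1.12 for Dusp6, 1.85 for Dusp10, 0.39 for Dusp4, 0.24 for Spry2, 0.10 for Spred1, 0.09 for Spry4, -0.24 for Dusp5 and -0.23 for Spred2. Between lanes 2 and 3, where lane and diet cannot be told apart, it was 0.46 for Dusp6, 0.51 for Dusp10, 0.26 for Dusp4, -0.05 for Spry2, 0.18 for Spred1, 1.23 for Spry4, 0.05 for Dusp5 and -0.12 for Spred2. Spry2 and Dusp5 thus had opposite signs in these comparisons. The within-lane difference of Spry4 was thus near 0, and those of Dusp6 and Dusp10 were larger than over all libraries.

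Ratios between members within a library do not depend on how libraries are scaled. The ratio of Dusp6 to Spry2 reads was 2.87, 2.61 and 2.61 in low-NaCl libraries 1 to 3, against 1.57, 2.02 and 1.65 in high-NaCl libraries 1 to 3. The diets did not overlap in this ratio, although they overlapped in both genes. The means were 2.70 ± 0.149 on the low-NaCl diet and 1.75 ± 0.241 on the high-NaCl diet (SD, n = 3 each, exact two-sided permutation test, p = 0.1, which is the lowest value possible with 3 libraries on each side). The ratio of Dusp10 to Spry2 was 0.0719, 0.0646 and 0.0666 in low-NaCl libraries, against 0.0216, 0.0548 and 0.0351 in high-NaCl libraries, again without overlap. Of the other 7 members, these 2 separated the diets when divided by Spry2, beside 9.70% of all other tested genes. Divided by Dusp6, 3 of the other 7 did so (Dusp5, Spry2 and Spred2), beside 24.6% of all other tested genes. The 2 Spred genes, whose log2 fold changes have opposite signs, had a ratio of 0.938, 0.870 and 1.05 (Spred1 to Spred2) in low-NaCl libraries, against 0.741, 0.722 and 0.834 in high-NaCl libraries. Ratios were computed for all 28 pairs after the levels were seen. In 10 of the 28 pairs the diets did not overlap, beside 24.4% of all pairs of tested genes, and the pairs share genes. Of these 10 pairs, 5 held Spred2, with Dusp4, Dusp6, Dusp10, Spry4 and Spred1, where 24.1% of all other tested genes separated the diets when set against Spred2. The smallest exact permutation p adjusted over the 28 pairs by Benjamini-Hochberg was 0.28, and with 3 libraries per diet no pair could have passed 0.05.

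**Figure D3:**
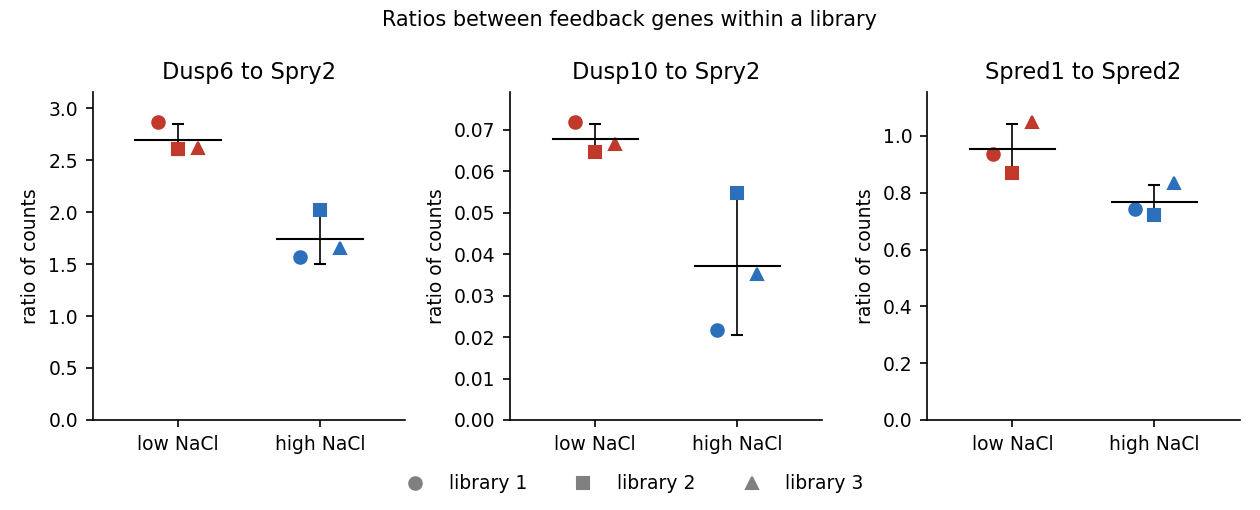
Ratio of counted reads (vertical axes, from 0) of Dusp6 to Spry2, Dusp10 to Spry2 and Spred1 to Spred2 in each low-NaCl (left, red) and high-NaCl (right, blue) library, with the mean (bar) and SD (whisker) of 3 libraries. The low-NaCl libraries lie above the high-NaCl libraries in each panel, with means of 2.70 against 1.75 for Dusp6 to Spry2.

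Other genes that ERK is known to induce differed between the diets in both directions, while no member passed. Of 8 tested genes of that list 2 rose and 3 fell, against 1.72% higher and 1.74% lower over all tested genes. Egr1, an immediate early transcription factor, measured 45.7, 144 and 88.8 CPM in low-NaCl libraries, against 285, 530.1 and 421 CPM in high-NaCl libraries (log2 fold change -2.15 ± 0.38, edgeR adjusted p = 0.0202). Phlda1, a pleckstrin homology domain protein, measured 30.7, 36.0 and 35.0 CPM in low-NaCl libraries, against 62.4, 68.2 and 57.6 CPM in high-NaCl libraries (log2 fold change -0.89 ± 0.13, edgeR adjusted p = 0.0108). Ccnd1, which encodes cyclin D1, fell likewise (-0.92 ± 0.14, edgeR adjusted p = 0.0130). The list members that rose were Ier3 (1.23 ± 0.20, edgeR adjusted p = 0.0152) and the small MAF transcription factor Maff (1.15 ± 0.21, edgeR adjusted p = 0.0222), Maff being named after its value was seen. The differences between the 2 libraries of lane 1 kept these signs, at -2.64, -1.02, -0.87, 1.03 and 1.27 for Egr1, Phlda1, Ccnd1, Ier3 and Maff. No call of these 5 held with a lane term (adjusted p 0.127 to 0.300), a fit whose diet difference rests on lane 1 alone. The call of Egr1 also ended without low-NaCl library 3 or any 1 high-NaCl library (0.0577 to 0.101). Leaving out low-NaCl library 2 ended the calls of Ccnd1, Ier3 and Maff (0.0626, 0.0517 and 0.0896), as did leaving out high-NaCl library 3 (0.0719, 0.0819 and 0.0693). Leaving out low-NaCl library 3 ended that of Ccnd1 (0.0511), and leaving out high-NaCl library 1 that of Maff (0.0670). With total counts alone, Egr1, Phlda1 and Ccnd1 did not pass (0.0577, 0.0767 and 0.0577), and Egr1 did not pass without a filter (0.135). The calls listed leave out the fit against high-NaCl library 2 alone, which has a single library of that diet. Over every fit the log2 fold changes stayed between -2.64 and -1.82 for Egr1 and between 0.96 and 1.34 for Maff. Etv1, Etv4 and Etv5, ETS factors of the same list, had too few reads to test, with 2.79 to 17.9% of their exonic bases countable.

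Immediate early genes are induced without new protein synthesis, and their list also holds Egr1. Of 13 tested, 8 fell on the low-NaCl diet and none rose. The number that fell was 5 without high-NaCl library 3, 5 with total counts alone and 1 with a lane term. With exact intron matches only, 4 of the 7 genes tested fell. Fos, a transcription factor gene of this list, measured 88.2, 90.0 and 78.2 CPM in low-NaCl libraries, against 299.7, 620.3 and 513 CPM in high-NaCl libraries (edgeR adjusted p = 0.00360, and 0.127 with a lane term). The members' differences were not tested against those of other genes.

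**Figure D4:**
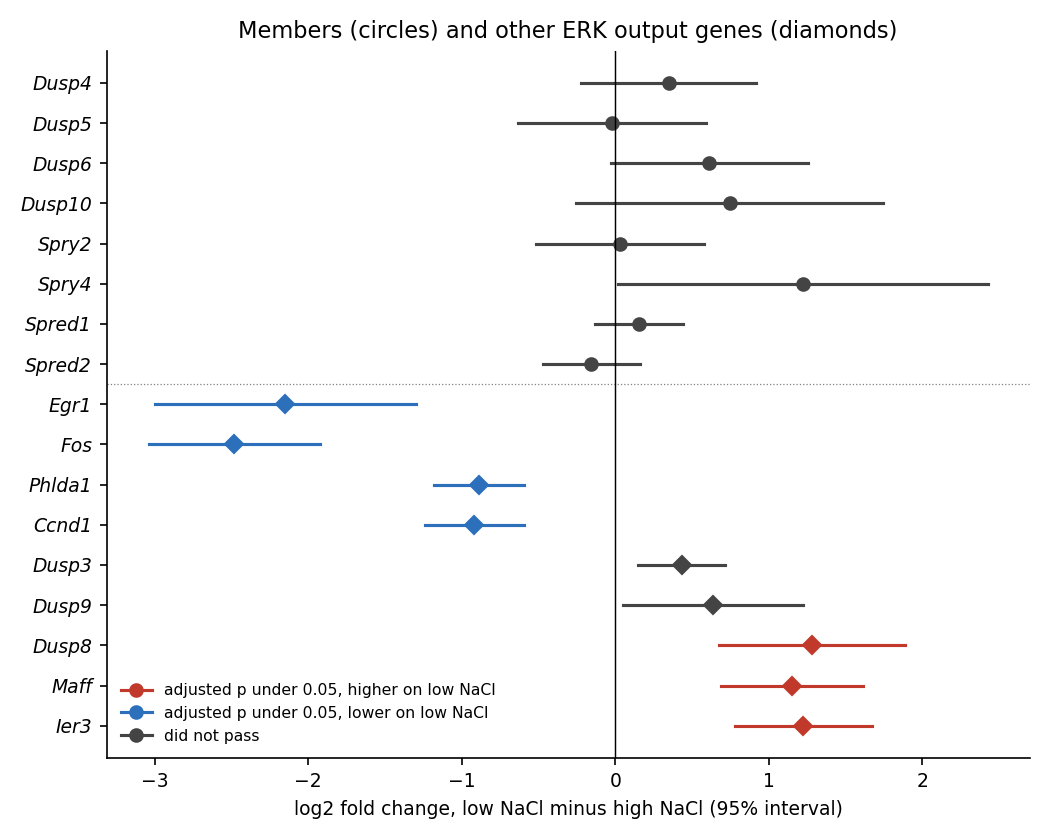
Log2 fold change, low NaCl minus high NaCl, with its 95% interval (horizontal axis) for the 8 tested members (circles) and for other genes of the ERK, phosphatase and immediate early lists (diamonds). No member passed, and Egr1, Fos, Phlda1 and Ccnd1 lie below 0 and Dusp8, Maff and Ier3 above 0 with an adjusted p under 0.05.

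Of the remaining MAP kinase phosphatases and feedback inhibitors, 1 of 14 tested rose and none fell. It was Dusp8, a phosphatase of JNK and p38, at 18.9, 10.2 and 10.3 CPM in low-NaCl libraries, against 5.23, 6.46 and 4.44 CPM in high-NaCl libraries (log2 fold change 1.28 ± 0.27, edgeR adjusted p = 0.0359). All low-NaCl libraries lay above all high-NaCl libraries. The adjusted p of Dusp8 was above 0.05 with total counts alone or limma-voom (0.0620 and 0.0505), when low-NaCl library 2, high-NaCl library 1 or high-NaCl library 3 was left out (0.0690 to 0.143) and with a lane term (0.182). The log2 fold changes in these fits were 1.16 to 1.85. Over every fit the log2 fold change of Dusp8 lay between 0.918 and 1.85. Against high-NaCl library 2 alone, the one of its diet with under 25% mitochondrial counts, it was 1.003. The calls listed leave out that fit, which has a single library of that diet. Dusp9, an ERK phosphatase and at 290 to 373 against 139 to 302 CPM the most counted of the phosphatases listed, did not pass (0.64 ± 0.26, edgeR adjusted p = 0.230). It passed with limma-voom sample weights (0.0492), with the replicate block (0.0272) and without high-NaCl library 1 (1.02, 0.0339), and was 0.30 with a lane term (0.651). The log2 fold change of Dusp9 against high-NaCl library 2 alone was 1.18. The dual-specificity phosphatase Dusp3 did not pass (0.43 ± 0.13, edgeR adjusted p = 0.101), but did with DESeq2 (0.0401), sample weights (0.0383) and the replicate block (0.0360). The RAS inhibitor Nf1, neurofibromin, which Spred proteins bind, had a log2 fold change of 0.81 with an edgeR adjusted p of 0.305. The list median was 0.37.

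Upstream of the feedback genes, none of 16 tested genes of the RAS, RAF, MEK and ERK core passed, and their median log2 fold change was 0.03. The smallest p-values belonged to Braf (0.47 ± 0.17), the adaptor Shc1 (0.64 ± 0.25), Map2k1, which encodes MEK1 (0.37 ± 0.15), and the kinase gene Rps6ka2 (-0.55 ± 0.28), with edgeR adjusted p-values of 0.191 to 0.351. Map2k1 measured 197, 210.3 and 189.7 CPM in low-NaCl libraries, against 132, 177 and 153 CPM in high-NaCl libraries. Braf passed with limma-voom sample weights (adjusted p = 0.0317). Of the core genes, 14 of 21 had under 50% of their exonic bases countable. None of 9 tested receptor tyrosine kinases passed, with the insulin-like growth factor receptor Igf1r nearest (0.71 ± 0.19, edgeR adjusted p = 0.0698). Igf1r passed with DESeq2 (0.0202), sample weights (0.0254) and the replicate block (0.0432). Fgfr1 passed with sample weights and without high-NaCl library 2, but it was near the limit of detection, with 2.91% of its exonic bases countable. Its level was 0.298, 0.273 and 0.189 CPM in low-NaCl libraries, against 0, 0.287 and 0 CPM in high-NaCl libraries. Of 9 tested genes of the JNK and p38 cascades 1 rose, the p38 beta gene Mapk11, at 7.43, 11.5 and 6.79 CPM in low-NaCl libraries, against 1.90, 3.61 and 3.49 CPM in high-NaCl libraries (1.51 ± 0.30, edgeR adjusted p = 0.0284). Mapk11 lost its call when low-NaCl library 2, high-NaCl library 1 or high-NaCl library 3 was left out (0.0672 to 0.110), with total counts alone (0.0682) and with a lane term (0.208), while its log2 fold change stayed between 1.23 and 1.97 over every fit. The calls listed leave out the fit against high-NaCl library 2 alone, which has a single library of that diet.

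Across the 6 libraries, the genes whose log2 level followed Dusp6 most closely were Cmtm4, a membrane protein gene (Pearson r = 0.998), Ubxn8 (0.993) and Ppp2ca, a catalytic subunit of protein phosphatase 2A (0.993), among 4214 genes compared. Cmtm4 measured 185, 219 and 186 CPM in low-NaCl libraries, against 132, 196 and 159 CPM in high-NaCl libraries. The most opposite were the adhesion molecule gene Bcam (-0.996), Blvrb (-0.994) and C1qtnf12 (-0.993). Among members that met the same limits, r with Dusp6 was 0.84 for Dusp4, 0.83 for Spred1 and 0.78 for Spry2. With 6 points that share library depth and diet, high values of r are common, and they are given as a description.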

How the data were processed

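The deposited files hold 1 table of raw read counts for each library. These counts were made by the authors, per the file headers, over exons of a UCSC mm10 annotation, with featureCounts 1.5.0-p3 and no option for strand, overlap or multiple mapping. FastQC, Subread and edgeR are also listed in the submitters' processing notes, and an aligner is not given in the sources used here. Each of the 59121 identifiers is a transcript, so a read in an exon that several of them share was not counted, and opposite strands were not told apart. No identifier of another gene overlapped the members' exons.

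Identifiers were matched to GENCODE M21 genes (build GRCm38, which is mm10) by identical introns (41510) or at least 50% of exonic bases on the same strand (11061) and summed by symbol, and the 6550 unmatched ones (5.57% of counts) entered library sizes only. Each of the 19 member identifiers passed the 50% rule. The countable share is the percent of exonic bases in a single identifier. Reads lost to several mapping places are not part of it.

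Counts were tested with edgeR 4.0.16 (R 4.3.3): filterByExpr by diet, TMM factors, glmQLFit with robust estimation, glmQLFTest, Benjamini-Hochberg over 10566 genes. Each SE was computed from the fold change and the F statistic as |log2 fold change| / √F, and the 95% interval uses the fit's degrees of freedom. Lanes come from the read-file names in the headers. Logs for lanes, within-diet spread and r used CPM + 0.1. The procedure was tested on simulated data. Alternatives used DESeq2 1.42.0 and limma 3.58.1. Counting error is small for the abundant members and large for Spry4.

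The members and lists were chosen with earlier results of these data known. Named were all members, up to 4 genes per list by smallest p, and the 3 most like and 3 least like Dusp6 whose mean log2 CPM was 3 or more and whose countable share was 50% or more.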

Additional observations from a re-analysis of the deposited data

How the results depend on the processing

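Of the 21 other fits, 20 called no member in either direction. With the replicate number as a block, Dusp6 rose (log2 fold change 0.68, adjusted p = 0.0283), so 1 member was higher, where that fit called 8.65% of all genes. The numbers are not shown to pair libraries, since deviations from the diet means correlated at 0.19, 0.27 and -0.07 for numbers 1, 2 and 3, and low-NaCl library 3 correlated best with high-NaCl library 2. Adjusted p-values of Dusp6 ranged from 0.0283 to 0.936, and leaving out each library left 0 members called. Dusp5 was above 0 with total counts alone (0.065) and with sample weights (0.064), and ranged from -0.31 to 0.11 when each library was left out. Spry2 ranged from -0.21 to 0.24 when each library was left out. Without the 2 libraries of over 25% mitochondrial counts, Spry2 was at -0.33 and Dusp10 at -0.041. The receptor gene Fgfr1 was at -0.19 in that fit, beside 1.20 over all libraries. Of the high-NaCl libraries, only library 2 held reads of Fgfr1. Over all genes, 182 were higher and 184 lower on the low-NaCl diet. The counts were 81 and 55 with total counts alone, 398 and 424 with DESeq2, 516 and 524 with sample weights, 467 and 447 with the replicate block, 1 and 2 with a lane term, and 31 and 92 without the libraries of over 25% mitochondrial counts. Without a filter 281 were lower. The fit with a lane term drew the diet difference from lane 1 alone. Leaving out each library gave 34 to 292 higher and 36 to 247 lower. The cause of these shifts was not tested. Spry4 had only 9 to 53 reads, and Dusp16 and Spry1 were limited by exons shared between identifiers.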
